A study of Homo sapiens with 4 samples.

Results

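GATA2, GATA3, GATA4 and GATA6 are 4 genes for zinc-finger transcription factors, and their rows were taken by symbol from all 4 deposited tables, which together list 23364 gene symbols. Their detection and pairwise co-detection were followed in blastoid cells with and without 2 or more of 5 epithelial markers (TFAP2A, TFAP2B, GABRP, VTCN1 and KRT7). GATA factors bind DNA at sites built around the letters GATA through a conserved zinc-finger region. As background, GATA2 and GATA3 act in the trophectoderm, the outer layer of the blastocyst, and in the trophoblast that forms from it, and both also occur in amnion. GATA2 further acts in blood and endothelial precursors. GATA4 and GATA6 act in hypoblast, the inner extraembryonic layer of the blastocyst, in endoderm, and in heart and lateral mesoderm.

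Single-cell RNA was measured in 4 samples of the human embryonic stem cell line KhES1. The 2 hESC samples (hESC 1 and hESC 2) were grown on Matrigel in mTeSR-1, a defined medium for primed pluripotent cells. For the 2 blastoid samples (blastoid 3 and blastoid 4), blastocyst-like structures were derived from KhES1: dissociated cells were aggregated in microwells with the ROCK inhibitor Y27632, embedded in a thermoresponsive hydrogel under serum medium, and then kept in iBlastoid medium. The titles give day 0 for all 4 samples, whereas the names of the blastoid tables give day 9, so that groups rest on the tissue label. All samples come from a single cell line, and nothing says whether samples of a group were separate cultures, so p-values speak for these samples only. Those between blastoids and hESC measure the spread between samples of a group.

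The 4 members are similar in their coding sequence, so it was checked how long an identical stretch any pair of them shares. In the GENCODE annotation of GRCh38, GATA2 lies on chromosome 3 at 128479427 to 128493185 (minus strand), GATA3 on chromosome 10 at 8045378 to 8075203 (plus strand) and GATA6 on chromosome 18 at 22169443 to 22202528 (plus strand). Between the longest protein-coding transcripts, GATA2 and GATA6 shared at most 35 bases in a row, GATA3 and GATA6 29 bases, and GATA2 and GATA3 18 bases. Pairs with GATA4 shared 17 to 20 bases. All of these stretches lay in coding exons, none of them in a UTR, and that of GATA2 and GATA6 began at base 1248 of the 3367-base GATA2 transcript. The 3 stretches are shown 5′ to 3′ because a read must reach beyond them to tell these messages apart, and capitals mark the 14 bases that the lower 2 of them have in common.
GATA2/GATA3: agccccttctccaagacg
GATA2/GATA6: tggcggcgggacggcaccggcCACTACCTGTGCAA
GATA3/GATA6: CACTACCTGTGCAAcgcctgcgggctcta

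Kept cells, with at least 500 genes and no doublet call, numbered 2238 in hESC 1, 3175 in hESC 2, 2278 in blastoid 3 and 1916 in blastoid 4. They held 13255214 to 17679447 UMIs per sample, a UMI being a tag that lets copies of 1 captured molecule be counted once. The median UMIs per kept cell were 5769 and 4996 in the hESC samples and 6207 and 8798 in the blastoid samples. Kept cells of hESC 1 and hESC 2 shared 23 barcodes, and those of blastoid 3 and blastoid 4 shared 0. The hESC samples carried the 6 pluripotency markers at 3369 and 3504 counts per 1000000 (CPM), against 459 and 517 in the blastoid samples. Shares of cells with a UMI are given below after every cell was thinned to 2000 UMIs, and as counted where that is said. Levels are UMIs of 3′ ends as CPM of the summed UMIs, not corrected for transcript length, so each gene is compared with itself only.

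None of the 4 members was listed in either hESC table, and all 4 were listed in both blastoid tables. The hESC tables hold few genes with UMIs in under 3 barcodes: in hESC 1, 7 genes had UMIs in 1 barcode, 112 in 2 and 790 in 3. A missing member was therefore taken as at most 2 UMIs per table, which corresponds to at most 0.0894% of the kept cells of hESC 1 and 0.0630% of those of hESC 2. GATA4 lies on chromosome 8 at 11676959 to 11760002 (plus strand). GATA1, the founding member of the family in red blood cells, was listed in no table.

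GATA2 counted 267 UMIs (17.7 CPM) in blastoid 3 and 334 (18.9 CPM) in blastoid 4. GATA3 counted 1626 (108 CPM) and 2365 (134 CPM). GATA4 counted 140 (9.27 CPM) and 105 (5.94 CPM), and GATA6 1583 (105 CPM) and 1332 (75.3 CPM). Both blastoid samples thus lay above both hESC samples for each member. How many of all genes did so was not counted, and 27.1% of the genes tested were called higher in blastoids. GATA3 was higher in blastoid 4 than in blastoid 3, whereas GATA4 and GATA6 were higher in blastoid 3.

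Fold differences against the absent hESC rows are lower bounds, with 9.15 counts over both hESC samples, the one-sided 95% upper limit for 4 counts, in place of the missing values. GATA2 was at least 53.4-fold higher in blastoids and GATA3 at least 354-fold. The bound was 22.0-fold for GATA4 and 261-fold for GATA6. By edgeR's quasi-likelihood test on UMIs summed per sample, all 4 members were called higher, with Benjamini-Hochberg adjusted p of 2.57e-05 for GATA2, 1.22e-05 for GATA3, 1.74e-04 for GATA4 and 1.21e-05 for GATA6. The direction of these calls was fixed in advance. Genes absent from both hESC tables passed the count filter through the blastoid samples only, so they could only be called higher. Of 16332 genes tested, 49.9% were called, 27.1% higher and 22.8% lower in blastoids. Without hESC 1, 4896 genes were called, and without hESC 2, 5114, against 8157 with all samples. An exact permutation test of the shares of cells gave a two-sided p of 0.333 for each member, the smallest that 2 against 2 samples allow. In summed UMIs, fewer cells of a type and less RNA per cell cannot be told apart.

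Among the 5 other GATA-type genes and antisense RNAs tested, all 5 were called higher in blastoids, with a median log2 fold change of 4.06 with absent genes at their bound, against 0.05 over all genes. Over all genes tested, 27.1% were called higher. GATA2-AS1, GATA3-AS1 and GATA6-AS1 had no hESC row, so they could only be called higher. GATA5, the closest relative of GATA4 and GATA6, counted 5 UMIs in each hESC sample and 175 and 220 in the blastoid samples, a log2 fold change of 4.97 ± 0.30 (SE; adjusted p = 2.77e-05). GATA6-AS1, an antisense RNA at the GATA6 start, was at least 126-fold higher. TRPS1, an atypical GATA-type repressor, rose by 0.97. Of 9 cofactors tested, 1 was higher and 2 were lower (median 0.06): ZFPM2, the FOG2 partner of GATA4, was at least 54.1-fold higher, while ZFPM1 and TCF3 fell by 0.89 and 0.57.

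Genes of the tissues in which the members act were also counted. Over all genes tested, 27.1% were called higher and 22.8% lower. Genes with no hESC row could only be called higher. In the first list these were TFAP2A, TFAP2B, CDX2, ISL1, TP63, HAND1, VTCN1 and WNT6. Among heart and mesoderm factors they were HAND2, TBX2, TBX3, TBX20, FOXF1, TBXT and EOMES. In the other lists they were APOA2, FLI1, CGA, GCM1 and ELF5. Of 15 trophectoderm and amnion genes, 14 were higher, with a median of 5.29 at the bounds; HAND1 was at least 2223-fold and CDX2 at least 171-fold higher. Of 15 heart and mesoderm factors, 14 were higher (median 3.64), among them TBX3 at least 822-fold and HAND2 at least 425-fold. Of 8 endoderm and hypoblast genes tested out of 14, 7 were higher (median 1.98). The more abundant of them, with log2 CPM averaging 2 or more, were the basement-membrane genes NID2, COL4A1 and LAMA1, at log2 fold changes of 5.61, 1.26 and 0.99, and mesenchymal cells express them too. At lower counts, APOA2, an apolipoprotein, was at least 14.0-fold higher, CER1, a secreted antagonist of Nodal and BMP, was at 2.84, CXCR4, a chemokine receptor, at 2.53 and APOA1 at 1.42. Of 10 BMP response genes 9 were higher (median 3.33), with MSX2 at 8.64 and BAMBI at 5.06. Among 8 trophoblast genes 5 were higher (median 1.54), among 8 blood and endothelial genes 4 were higher and 1 lower (median 1.59), and among 8 pluripotency genes 7 were lower (median −2.85).

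The 5 epithelial markers divide the blastoid cells. TFAP2A and TFAP2B encode AP-2 transcription factors, GABRP a GABA receptor subunit, VTCN1 an immune checkpoint ligand and KRT7 a keratin of simple epithelia; all are used as markers of trophectoderm or amnion. Cells with a UMI of 2 or more of them, called epithelial-marker cells here, were 360 (15.8%) of blastoid 3 and 626 (32.7%) of blastoid 4. The same limit was passed by 11 cells of hESC 1 and 5 of hESC 2. Their median depth was 6699 and 9390 UMIs in the blastoid samples, against 6139 and 8545 in the other cells. The 6 stromal genes (COL1A1, COL1A2, COL3A1, LUM, DCN and POSTN) stood at 624 and 643 CPM in epithelial-marker cells and at 3204 and 2298 CPM in the other cells, with none at 0, and their part in the differences below was not tested.

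GATA2 stood at 50.6 CPM in epithelial-marker cells of blastoid 3 and 41.3 CPM in those of blastoid 4, against 10.7 and 6.58 CPM in the other cells. GATA3 stood at 350.3 and 283 CPM, against 56.0 and 51.5 CPM. GATA4 went the other way, with 1.13 and 0.80 CPM (3 and 5 UMIs) in epithelial-marker cells and 11.0 and 8.77 CPM in the rest. GATA6 had 14.0 and 16.9 CPM in epithelial-marker cells and 124 and 108 CPM in the rest. For each member, the 2 values of one class did not overlap the 2 values of the other. How many of all genes behaved so was not counted, and 50.0% of the genes tested were called between the classes.

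In the edgeR quasi-likelihood test with the sample as a block and the 5 class markers left out, GATA2 and GATA3 were called higher in epithelial-marker cells. The log2 fold change was 2.58 ± 0.15 (SE; adjusted p = 3.05e-10) for GATA2 and 2.69 ± 0.08 (adjusted p = 3.73e-14) for GATA3. GATA4 and GATA6 were called lower, at −3.23 ± 0.37 (adjusted p = 1.40e-06) and −2.69 ± 0.13 (adjusted p = 1.37e-11). Within blastoid 3 and blastoid 4 the log2 ratios were 2.37 and 2.80 for GATA2, 2.77 and 2.61 for GATA3, −3.15 and −3.31 for GATA4, and −3.02 and −2.52 for GATA6. With the sample as a block, the p-values measure how far such ratios varied between the 2 samples, with the spread pooled over genes. They do not measure the spread between samples. Of 14906 genes tested, 50.0% were called, 25.6% higher and 24.4% lower in epithelial-marker cells. Higher genes made up 51.2% of the calls, and 38.7% when counts were scaled by library size only, which moved the median of all genes by −0.14 and left the direction and call of all 4 members in place. When classes and sums were made after thinning, GATA2 was at 1.77 and GATA3 at 1.81 (adjusted p = 5.22e-04 and 7.11e-08). GATA6 was then at −3.54 (adjusted p = 4.24e-07), and GATA4 had 0 UMIs in the epithelial-marker cells of both samples, against 49 and 22 in the other cells. With a class limit of 1 marker, GATA4 was at −1.47 and GATA6 at −1.66 (adjusted p = 1.13e-04 and 8.00e-12).

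The shares of cells followed the levels. GATA3 was detected in 42.8% (95% Clopper-Pearson interval 37.5 to 48.2%) of epithelial-marker cells of blastoid 3 and 39.3% (35.4 to 43.3%) of those of blastoid 4, against 10.8% and 10.2% of the other cells. As counted, these shares were 78.1% and 81.6% against 25.7% and 31.2%. GATA2 was detected in 7.51% and 6.60% of epithelial-marker cells and 1.59% and 1.52% of the rest. GATA4 was detected in 0.29% and 0.16% against 2.47% and 1.68%. GATA6 was detected in 1.16% and 3.06% against 22.3% and 19.1%, and as counted in 8.06% and 13.9% against 46.2% and 52.1%. The intervals of the 2 classes did not overlap within either sample for GATA2, GATA3 and GATA6, and for GATA4 they lay just apart, over few cells. Intervals cover counting error only.

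The low levels were set beside those of other genes of the opposite class, since free RNA can give UMIs in droplets of cells that do not express a gene. In the other cells, GATA3 stood at 16.0% and 18.2% of its level in epithelial-marker cells, and GATA2 at 21.1% and 15.9%. TFAP2C, an AP-2 factor of the same list, stood at 12.3% and 13.0%, and WNT6, a secreted ligand, at 3.26% and 4.73%. ISL1, a LIM-homeobox factor, stood higher, at 24.8% and 28.7%. In epithelial-marker cells, GATA6 stood at 11.3% and 15.7% of its level in the other cells, below the 19.5% and 28.0% of the 6 stromal genes together, and GATA4 at 10.3% and 9.08%. Some other genes of that class stood lower there, with ZFPM2 at 2.63% and 4.62%, FOXF1 at 6.75% and 4.02%, and HAND2 at 2.00% and 7.89%. GATA6-AS1 stood at 8.77% and 10.2%, and GATA5 higher, at 40.9% and 42.9%. The part of free RNA in the GATA4 and GATA6 UMIs of epithelial-marker cells was not tested.

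**Figure D1:**
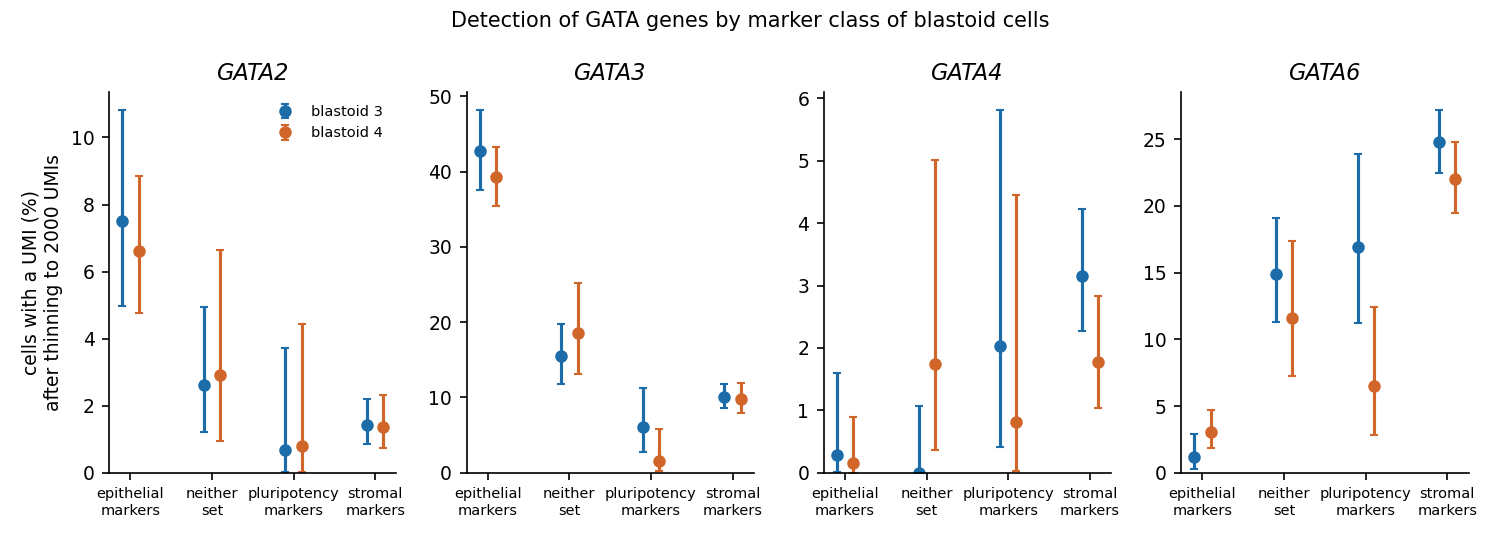
Share of blastoid cells with a UMI of each member (y axis, %, cells thinned to 2000 UMIs) by marker class (x axis), 1 panel per gene with its own scale; points are samples and bars 95% Clopper-Pearson intervals. GATA3 is at 42.8% and 39.3% in epithelial-marker cells, and GATA6 is highest in stromal-marker cells, at 24.8% and 22.0%.

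The other cells were divided further by marker sets into cells with 3 or more of 6 pluripotency markers (153 and 124 cells), else cells with 2 or more of the 6 stromal genes (1354 and 969), and cells with neither (411 and 197). GATA6 was detected in 24.8% and 22.0% of stromal-marker cells, 16.9% and 6.50% of pluripotency-marker cells, and 14.9% and 11.6% of cells with neither set. Stromal-marker cells held the highest share in each sample, and the interval of the pluripotency-marker cells of blastoid 3 (11.2 to 23.9%) reached that of the stromal-marker cells (22.5 to 27.2%). GATA4 was detected in 3.15% and 1.77% of stromal-marker cells, and its few cells elsewhere gave no order. GATA3 ran from 15.5% and 18.6% in cells with neither set through 10.1% and 9.81% in stromal-marker cells to 6.08% and 1.63% in pluripotency-marker cells. GATA2 was at 2.63% and 2.91% in cells with neither set and at 1.42% and 1.36% in stromal-marker cells, with overlapping intervals.

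The members were also followed by the number of epithelial markers in a cell. GATA3 stood at 49.1 and 48.6 CPM in cells with 0 markers, at 100 and 66.2 CPM with 1 marker, and at 408 and 278 CPM with 2. From 2 to 5 markers it stayed between 270 and 408 CPM in blastoid 3 and between 269 and 298 CPM in blastoid 4. GATA6 stood at 129.7 and 114 CPM with 0 markers, 88.7 and 74.8 CPM with 1, and 13.9 and 24.0 CPM with 2. It was between 10.2 and 24.0 CPM in every group of 2 to 5 markers in both samples. GATA3 and GATA6 thus differed most between 1 and 2 markers. GATA2 stood at 6.69 and 4.82 CPM with 0 markers, 36.1 and 15.6 CPM with 1, and 50.8 and 63.2 CPM with 2, so that its larger step was between 0 and 1 in blastoid 3 and between 1 and 2 in blastoid 4. In blastoid 3, 3 cells with 8 or more GATA2 UMIs held 37 of the 61 UMIs of the group with 1 marker. The place of the larger step in blastoid 3 thus rests on these few cells. GATA2 reached its highest level at 3 markers in blastoid 3 (75.0 CPM) and at 2 markers in blastoid 4 (63.2 CPM), and was lower at 5, with 30.5 and 28.1 CPM. In blastoid 4, single cells with 9, 8 and 8 GATA2 UMIs belonged to the group with 2 markers, which held 58. The place of the highest level in blastoid 4 thus rests on few cells as well. GATA4 had 0 to 2 UMIs in every group of 2 to 5 markers.

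**Figure D2:**
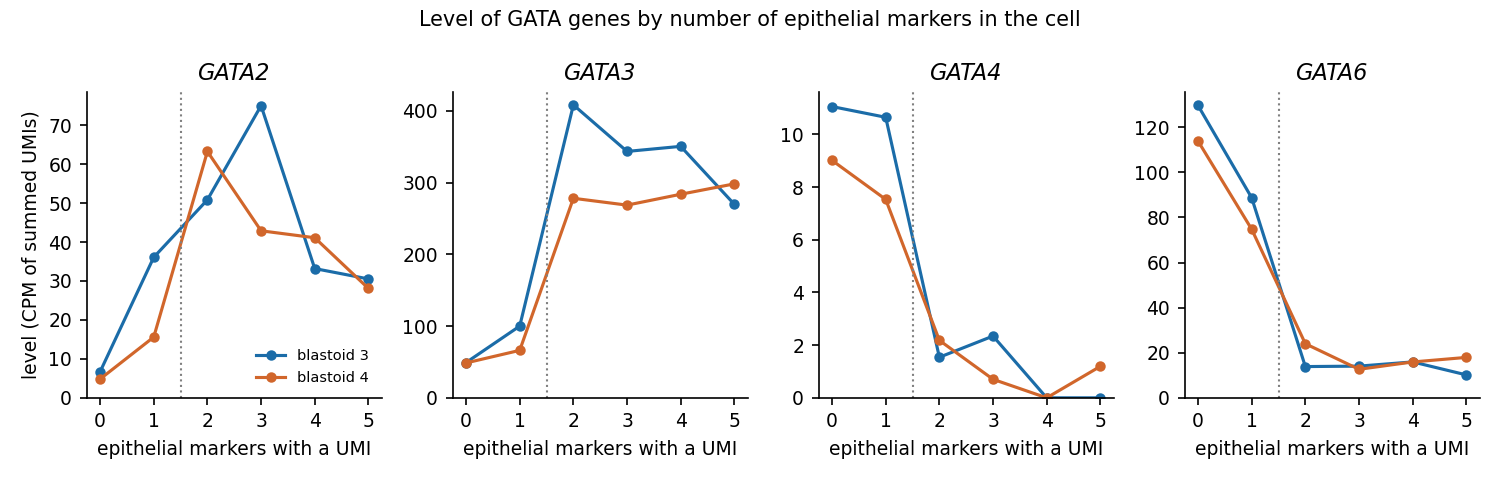
Level of each member (y axis, CPM of UMIs summed over cells, 1 scale per panel) by the number of the 5 epithelial markers with a UMI in the cell (x axis); lines are samples, and the dotted line is the class limit of 2 markers. GATA3 steps up and GATA6 steps down between 1 and 2 markers in both samples.

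Most cells carried few members. As counted, no member was seen in 785 cells of blastoid 3 and 484 of blastoid 4, 1 member in 1043 and 933, 2 members in 408 and 447, 3 members in 41 and 52, and all 4 members in 1 and 0. The most frequent pattern was GATA6 alone in blastoid 3 (567 cells) and GATA3 alone in blastoid 4 (475 cells). GATA2 with GATA3 and no other member was seen in 80 and 129 cells, of which 62 and 122 were epithelial-marker cells. GATA4 with GATA6 and no other member was seen in 44 and 36 cells, of which 44 and 35 were in the other class. GATA3 with GATA6 and no other member was seen in 235 and 248 cells, of which 219 and 196 were in the other class.

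Co-detection was expressed as the cells with both genes over the number that the product of the 2 single shares gives. A ratio of 1 means no association only where cells are of equal depth, and the first ratios given are unthinned. GATA2 and GATA3 were seen together in 99 cells of blastoid 3, where the product gives 58.0, and in 159 of blastoid 4, where it gives 103, ratios of 1.71 and 1.54. GATA4 and GATA6 had ratios of 1.34 and 1.56 (68 and 58 cells). Below 1 were GATA3 with GATA6 at 0.89 and 0.82 (276 and 297 cells), GATA2 with GATA6 at 0.70 and 0.58 (48 and 50 cells), GATA3 with GATA4 at 0.91 and 0.71, and GATA2 with GATA4 at 0.74 and 0.66, the last over 7 and 7 cells. After thinning, GATA3 with GATA6 was further below 1, at 0.61 and 0.55 (40 and 28 cells against 65.3 and 51.2), while GATA2 with GATA3 was at 1.95 and 1.34, with only 17 and 16 cells. GATA3 with GATA4 was then at 1.09 and 0.46 (8 and 2 cells) and GATA2 with GATA4 at 0.86 and 0 (1 and 0 cells), so that no direction can be read for these pairs.

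Ratios were also computed within each class. In epithelial-marker cells, GATA2 with GATA3 was at 1.10 and 1.11, and GATA3 with GATA6 at 0.97 and 1.00. In the other cells, GATA2 with GATA3 was at 1.31 and 0.95, GATA3 with GATA6 at 1.12 and 1.08, GATA2 with GATA6 at 0.99 and 0.98, GATA3 with GATA4 at 1.14 and 1.05, and GATA4 with GATA6 at 1.20 and 1.23. In these other cells, GATA2 with GATA3, GATA2 with GATA6 and GATA4 with GATA6 were thus nearer to 1 than over all cells in both samples, whereas GATA3 with GATA4 and GATA3 with GATA6 were above 1 there and below 1 over all cells. These ratios are unthinned. After thinning to 2000 UMIs, the mean of both samples in the other cells was 0.85 for GATA3 with GATA6 (58 cells against 68.3). For GATA3 with GATA4 it was 0.95, over 8 cells, with 1.44 in blastoid 3 (7 cells against 4.86). In the other cells, GATA3 with GATA6 was thus above 1 without thinning and below 1 after it. For GATA3 with GATA4 no direction can be read. The part of depth in the ratios was not tested, and in sparse counts ratios this close to 1 are no finding. Cells are not replicates, and no test was made across them.

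**Figure D3:**
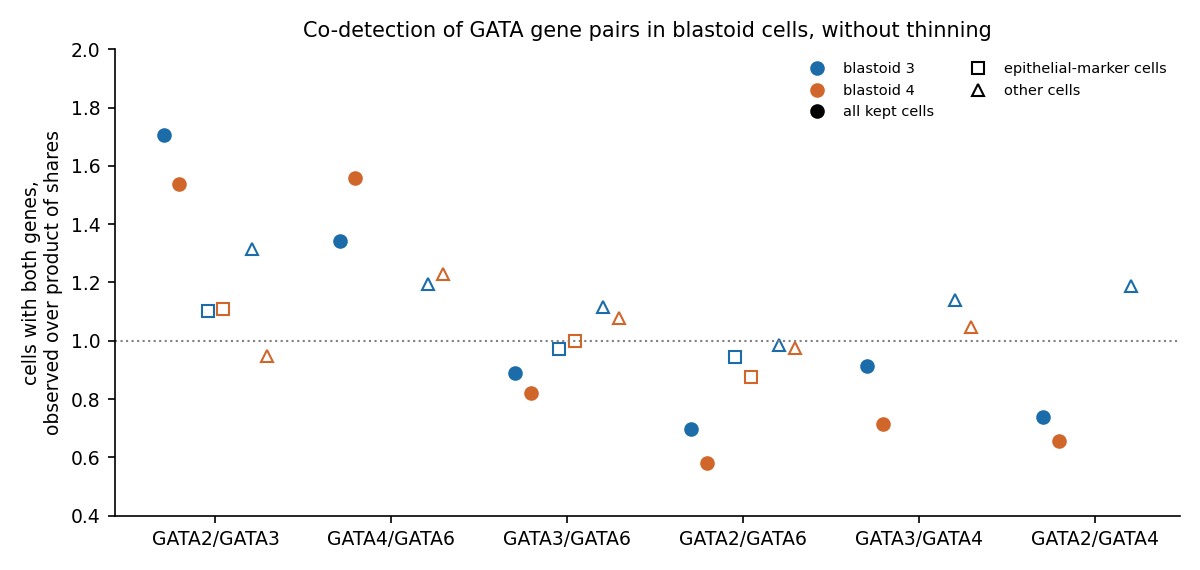
Co-detection ratio (y axis, cells with both genes over the number given by the product of the single shares, without thinning) for the 6 pairs (x axis) in all kept cells (filled circles), epithelial-marker cells (squares) and other cells (triangles), by sample; points are left out where the product gives under 5 cells, and the dotted line marks 1. Ratios of all cells run from 0.58 to 1.71, and GATA2/GATA3 lies between 0.95 and 1.31 within classes.

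The antisense RNAs at the members' loci went with their partners by class. GATA2-AS1 stood at 17.7 and 12.4 CPM in epithelial-marker cells and 1.36 and 1.93 CPM in the other cells, a log2 fold change of 3.29 ± 0.29 (adjusted p = 4.93e-08). GATA3-AS1 stood at 9.44 and 9.72 CPM against 5.06 and 3.33 CPM, a change of 1.39 ± 0.26 (adjusted p = 2.69e-04). GATA6-AS1 stood at 4.91 and 5.90 CPM against 56.0 and 57.9 CPM, a change of −3.21 ± 0.17 (adjusted p = 5.71e-11). GATA5 fell by 1.10 and TRPS1 by 1.00, so that 2 of the 5 tested genes of this list were higher and 3 lower. Over all genes tested, 25.6% were higher and 24.4% lower. The annotated overlap with the partner is 3974 bases for GATA2-AS1, 3035 for GATA3-AS1 and 436 for GATA6-AS1. Whether the counting used strand is not given in the sources used here. It is thus not known whether reads within the overlap were told apart by partner.

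Genes with the most similar pattern were taken as the 5 with the highest Pearson r over cells, by the lower of the 2 samples, among 13705 genes; the cells share depth and library, and r is given as a description. For GATA2 they were CCKBR (0.32 in blastoid 3 and 0.28 in blastoid 4), STS (0.28 and 0.27), KRT7, GATA3 (0.24 and 0.26) and HSPB8. For GATA3 they were KRT7 (0.40 and 0.40), EPAS1 (0.38 and 0.45), SLC2A3, EPCAM and TFAP2A. For GATA6 they included COL3A1 (0.31 and 0.38), HAND2 (0.33 and 0.31), PITX1 and LUM, and GATA6-AS1 came eighth at 0.26 and 0.35. For GATA4, with UMIs in about 5% of cells, no r passed 0.19, and the 5 were CCDC80, VIM, COL3A1, COL1A1 and COL4A2. GATA6 ranked 225 for GATA4, at 0.05 and 0.09.

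The gene lists of the members' tissues were also counted by class. Over all genes tested, 25.6% were higher and 24.4% lower in epithelial-marker cells, and the list counts below are to be read beside these shares. Of 10 trophectoderm and amnion genes outside the class markers, 8 were higher and 2 lower in epithelial-marker cells, with a median log2 fold change of 1.62 against −0.02 over all genes. WNT6 was at 4.78, TFAP2C at 3.12 and ISL1, a LIM-homeobox factor, at 2.04, while CDX2, a trophectoderm homeobox factor, was at −2.15. HAND1 was the other lower gene, at −0.68. This list shares its tissue with the class markers. Of 10 trophoblast genes 7 were higher and 1 lower (median 1.97): HLA-G, the class I molecule of invasive trophoblast, was at 2.99, CYP19A1, placental aromatase, at 1.56, and PGF, placental growth factor, at −1.62. The CYP19A1 value rests on blastoid 4, with 14.3 CPM against 0.44 CPM, while blastoid 3 had 16.6 against 16.1 CPM and 203 of its 244 UMIs in 5 cells. Of 15 heart and mesoderm factors 14 were lower and 0 higher (median −2.99), among them FOXF1 at −4.17, HAND2 at −4.11, MESP1 at −3.82 and KDR at −3.39.

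Of 8 endoderm and hypoblast genes tested, 7 were lower (median −2.46), among them NID2 at −2.58 and COL4A1 at −2.34. CER1 had 0 UMIs in the epithelial-marker cells of both samples and 60 and 20 in the other cells, and AFP and APOA1, with 1 and 3 UMIs in epithelial-marker cells of both samples together, were lower as well. Of 8 blood and endothelial genes, 1 was higher and 6 lower (median −3.02): RUNX1, a blood-forming factor also found in epithelia, was at 4.16, and TEK, the angiopoietin receptor, at −4.46. Of 10 BMP response genes 5 were higher and 4 lower (median 0.31), with ID1 at 2.14 and ID4 at 2.06 against SMAD9 at −1.91 and BAMBI at −1.11. Of 9 cofactors 2 were higher and 3 lower (median −0.13), near the 25.6% and 24.4% of all genes. Among them ZFPM2 was at −4.53, on the side of GATA4 and GATA6. Of 8 pluripotency genes 6 were lower (median −1.13), among them TDGF1 at −2.78 and NANOG at −2.36, and L1TD1 was higher, at 2.00.

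A few cells stood out by their GATA2 UMIs, and held 55 of the 267 in blastoid 3 and 33 of the 334 in blastoid 4. The limit of 8 GATA2 UMIs was chosen after the values were seen. In blastoid 3, 5 of 2278 cells passed it, with 18, 11, 9, 9 and 8 GATA2 UMIs, and 3 of them were in the other class, where they held 37 of the 133 GATA2 UMIs. These 5 cells also held 769 UMIs of the 12 trophoblast genes (12353 CPM, against 67.3 CPM in the rest). They held 345 of the 386 CGA UMIs of the sample, CGA being the alpha subunit of chorionic gonadotropin, 203 of the 244 CYP19A1 UMIs, and 44 of the 61 UMIs of ERVW-1, which encodes the fusion protein syncytin. In blastoid 4, 4 of 1916 cells passed the limit, with 9, 8, 8 and 8 GATA2 UMIs, all of them epithelial-marker cells, and they held 41 trophoblast UMIs (558 CPM against 72.8 CPM) and 0 CGA UMIs. The CGA UMIs of the 5 blastoid 3 cells were 50, 0, 0, 35 and 260 and the CYP19A1 UMIs 56, 2, 1, 12 and 132, so that 3 of them carried nearly all, and the other 2 had 22 and 3 trophoblast UMIs. Without all 9 cells, the class difference of GATA2 was 2.63 (adjusted p = 3.64e-07).

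**Figure D4:**
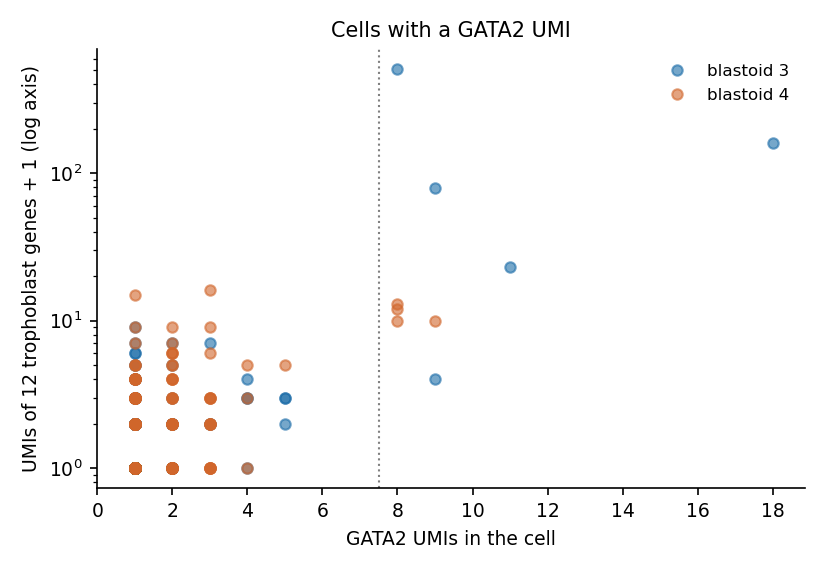
UMIs of the 12 trophoblast genes plus 1 (y axis, log axis) against GATA2 UMIs (x axis) in each blastoid cell with a GATA2 UMI; colours are samples, and the dotted line marks the limit of 8 UMIs. The 3 highest points, in blastoid 3, are cells with 78, 159 and 507 trophoblast UMIs, apart from all other cells.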

How the data were processed

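The members and gene lists were chosen with earlier results of these data known. Raw UMI counts by gene symbol and barcode, from 10x Chromium 3′ v3.1 libraries, were deposited for each sample; per the submitters' processing notes, Cell Ranger and GRCh38 were used, and per the tables every value was a whole number. Whether genes were filtered before deposit is not given in the sources used here. Cells with at least 500 genes and at most 20% mitochondrial UMIs were kept (9680 cells), and 73 Scrublet calls (scanpy 1.11.5; 0.754%) were left out. Levels came from UMIs summed per sample or class. Summed counts were fitted with edgeR 4.0.16 (quasi-likelihood test, TMM scaling, filterByExpr, Benjamini-Hochberg over all genes tested, called at adjusted p under 0.05), checked on simulated data. Named genes were the 4 members, up to 4 per list (called genes of largest fold change and mean log2 CPM of at least 2, else those with most UMIs), and 5 similar genes per member (r of log counts per 10000 UMIs, genes in at least 1% of cells). DESeq2 1.42.0, other scalings, filters, class limits, thinning depths and left-out samples were alternatives. One gene among those with a pattern like that of GATA6 is not reported here.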

Additional observations from a re-analysis of the deposited data

Results flagged for a closer look

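Barcodes with under 500 genes, which no comparison used, held UMIs of members in the blastoid tables and none in the hESC tables. In blastoid 3 these 1198 barcodes held 12 GATA2, 49 GATA3, 2 GATA4 and 24 GATA6 UMIs, and in blastoid 4 the 120 such barcodes held 4 GATA3 and 3 GATA6 UMIs. Of the 1198 barcodes, 1010 had the same sequence as a kept barcode of blastoid 4. Of the 47 with GATA3, 38 were shared in this way, and in 32 of these the blastoid 4 cell had GATA3, against 558 of all 1010 (55.2%). For GATA6, 21 of 24 were shared and 15 had GATA6 in blastoid 4, against 41.8% of all shared barcodes, and for GATA2, 11 of 12 were shared and 8 had GATA2 there, against 15.5%. These UMIs were 2.90% of the GATA3 UMIs in the blastoid 3 table, 1.48% of those of GATA6 and 4.26% of those of GATA2. The source of these UMIs was not tested.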

How the results depend on the processing

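All 44 values of the 4 members between blastoids and hESC, and all 52 between the classes, kept their direction, and those with a test stayed called, at adjusted p up to 1.74e-04 and 0.00938. Between blastoids and hESC the direction could not change, because no member was listed in the hESC tables. No paired analysis was possible because the hESC and blastoid samples share no replicate number. Between the classes the sample was the block; without the replicate block 4404 genes were called, against 7454, and no member lost its call. DESeq2 called 3619 there, thinned classes 2404, and a log2 fold change over 1 left 3391, against 4850 of 8157 between blastoids and hESC. Leaving out 1 sample gave 4896 to 10157 calls. The co-detection ratios over all cells, as the mean of both samples after thinning to 2000 UMIs, were 1.64 for GATA2/GATA3, 0.43 for GATA2/GATA4, 0.59 for GATA2/GATA6, 0.78 for GATA3/GATA4, 0.58 for GATA3/GATA6 and 1.74 for GATA4/GATA6. Thinning to 1000 UMIs gave 2.59 for GATA2/GATA3, 0.70 for GATA2/GATA6, 0.51 for GATA3/GATA6 and 2.35 for GATA4/GATA6, and turned GATA3/GATA4 to 1.12. Thinning to 4000 gave 0.51 for GATA2/GATA6, 0.73 for GATA3/GATA6 and 1.06 for GATA4/GATA6. No thinning gave 0.64 for GATA2/GATA6 and 0.85 for GATA3/GATA6, and keeping doublet calls gave 0.63 for GATA2/GATA6. Counting only cells with 2 or more UMIs of a gene gave 4.38 for GATA2/GATA3, 0.18 for GATA2/GATA6 and 0.52 for GATA3/GATA6, and turned GATA2/GATA4 to 1.64. Leaving out 1 blastoid sample moved GATA3/GATA4 between 0.46 and 1.09. The pairs with GATA4 rest on 10 or fewer cells, except GATA4/GATA6 on 19, and the cause of these shifts was not tested. Of the shares of cells with a member, 37 values moved by more than the spread between samples, mostly with thinning depth and class limit, and 35 did not.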

Other observations

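Markers of other cell types were counted in the cells with GATA4 or GATA6. Of 7 endoderm markers, FOXA2 was at 0 in both blastoid samples, and 2 or more were seen in 3 cells of blastoid 3 and 0 of blastoid 4. Of these 3 cells 1 had GATA4 and 0 had GATA6, which was seen in 916 cells of that sample. At least 2 of 5 endothelial markers (CDH5, PECAM1, TEK, EGFL7 and KDR) were seen in 258 and 222 cells, of which 50.0% and 51.4% had GATA6, 8.91% and 10.8% GATA4, 28.7% and 26.6% GATA3, and 6.98% and 10.4% GATA2. Over all kept cells these shares were 40.2% and 39.6% for GATA6, 5.53% and 4.91% for GATA4, 33.9% and 47.7% for GATA3, and 7.51% and 11.3% for GATA2. The cells with endothelial markers were deeper, with a median of 7680 and 10093 UMIs against 6207 and 8798, and the part of depth in these shares was not tested. The 5 endothelial markers together also stood at 104 and 97.5 CPM in the hESC samples, against 170 and 129 CPM in the blastoid samples. CDH5 counted only 22 and 8 UMIs in the blastoid samples and PECAM1 7 and 9, so these cells cannot be called endothelial. Stromal genes, 2 or more of 6, were seen in 83.2% and 85.8% of the cells with GATA6 and in 62.5% and 65.2% of those without, and in 91.3% and 93.6% of the cells with GATA4 against 69.6% and 72.3%. In blastoid 3, cells with GATA6 had a median of 6711 UMIs and those without 5974.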
